A study of Ovis aries with 60 samples.

Results

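The Y-box proteins YBX1, YBX2 and YBX3 were followed as transcripts in the sperm RNA of 20 F2 rams. The members were the rows that carry these 3 gene symbols among 28524 genes, and all 3 were among the 13576 genes with at least 15 reads in more than 10 libraries that entered the tests. The F2 rams were grandsons of 10 Polypay F0 rams. In the treatment line the 5 F0 sires had received rumen-protected (encapsulated) methionine on top of the control diet from weaning to puberty, and in the control line the 5 F0 sires were twins fed the control diet alone. The F1 and F2 animals of both lines ate the control diet, and the dams of both lines were untreated. Each F0 sire was represented by 2 F2 rams, so each line held 10 rams that were not fully independent, and the p-values below treat them as single animals unless sires or summed reads are named. The RNA came from semen that had passed through a somatic cell lysis step, and the labels call it sperm.

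Y-box proteins are RNA-binding proteins built around a cold shock domain, and they coat messenger RNAs in ribonucleoprotein particles (mRNPs) where translation is held back. In the male germ line, transcripts for the packaging proteins and tail of the sperm are made well before they are translated, and YBX2 (MSY2 in the mouse) is the germ-cell form that stores them in spermatocytes and round spermatids. YBX1 is made in most cells, and YBX3 (MSY4, also called CSDA or DBPA) is found in testis as well as in somatic tissues such as epithelia and muscle.

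The total count per library, the sum of reads assigned to genes, ran from 805737 to 13137139 with a median of 3436490. The study's methods give far more reads sequenced per library, with much less spread, so the total count is not the sequencing depth. The TMM factor, a scaling that lets most genes have the same level in each library, ran from 0.361 to 2.54. Rams are named by the titles of their libraries, which end in T for the treatment and C for the control line. Levels are given as CPM (counts per unit of library size, scaled by TMM) and were not set against each other between genes, because transcript lengths of the build used were not at hand. The libraries differed widely in what they held besides sperm. Of 21 listed spermatid, 20 leukocyte and 18 squamous epithelium markers, 13, 18 and 11 passed the filter on low counts. The spermatid markers below it were ACRV1, SPACA1, SPACA3, SPACA7, TSSK1B, ROPN1L, IZUMO1 and ZPBP. The summed level of the 13 spermatid markers lay between 187 and 2950 CPM in the treatment line and between 131 and 3292 CPM in the control line, that of the 18 leukocyte markers between 217 and 29034 CPM and between 135 and 58291 CPM, and that of the 11 squamous epithelium markers between 195 and 40946 CPM and between 136 and 73324 CPM. Of all listed markers present among the counted genes, also those below the filter, none was at 0 in every library. For the markers that passed the filter this follows from the filter itself. For each library a spermatid, a leukocyte and a squamous index was taken as the mean log2 CPM of the markers that passed the filter. Ram SpermRNA382T of the treatment line and ram SpermRNA485C of the control line stood apart from the other 18 at the low end of both somatic indices, and results that involve the indices are given with and without them. In bulk RNA, fewer cells of a type and less RNA per cell cannot be told apart. No index differed between the lines by more than 0.19 log2 units, within SDs above 1.2 (two-sided permutation test, lowest p = 0.75 of 3).

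YBX1 had as few as 8 reads in a library and lay between 6.48 and 100.7 CPM, with a median of 23.9 CPM. The lowest level was in ram SpermRNA426T of the treatment line, where 8 reads give a 95% interval of 2.80 to 12.8 CPM from counting error alone, and the highest was in ram SpermRNA468C of the control line. YBX2 had between 42 and 1529 reads and between 16.9 CPM in ram SpermRNA350C of the control line and 474.8 CPM in ram SpermRNA382T of the treatment line, with a median of 60.8 CPM. After ram SpermRNA382T, the highest YBX2 levels were 330.5 CPM in ram SpermRNA485C of the control line, 248.7 CPM in ram SpermRNA359T and 191.4 CPM in ram SpermRNA340T, both of the treatment line. YBX3 had between 41 and 3377 reads and between 14.7 and 470.1 CPM, with a median of 91.9 CPM. The 2 rams highest in YBX2 were the 2 lowest in YBX3. The lowest YBX3 levels were those of rams SpermRNA485C (14.7 CPM) and SpermRNA382T (16.6 CPM), whereas its highest levels were in rams SpermRNA320T (470.1 CPM), SpermRNA468C (397.2 CPM) and SpermRNA400C (322.5 CPM).

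The 3 genes did not vary to the same degree among rams. Over the 20 libraries the SD of log2 CPM was 1.01 for YBX1, 1.38 for YBX2 and 1.46 for YBX3, against a median of 0.91 over the 13576 genes. YBX2 and YBX3 were thus at the 81.8th and 84.8th percentile of all genes by spread, and YBX1 was at the 60.0th. This order depended on the scaling. With scaling by the total count in place of TMM, YBX1 was among the steadiest genes, at the 5.19th percentile with an SD of 0.58 and a 5.18-fold range, YBX2 rose to the 93.7th percentile with an 82.7-fold range, and YBX3 was at the 40.2nd percentile with a 15.4-fold range.

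**Figure D1:**
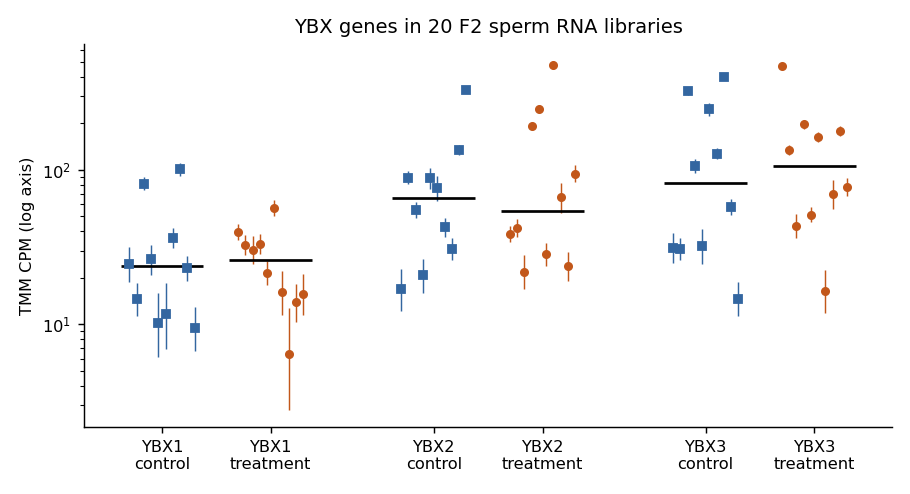
Level of YBX1, YBX2 and YBX3 in each of the 20 F2 sperm RNA libraries, as TMM CPM on a log axis, by line (squares, control; circles, treatment). Bars are 95% Poisson intervals of the read count and horizontal lines are medians. For each gene the 10 rams of one line overlap the 10 rams of the other, and YBX2 and YBX3 span more than YBX1.

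To ask whether the diet of the grandsire was followed by a different level of the Y-box transcripts, the lines were compared. YBX2, the germ-cell form, ran from 21.9 to 474.8 CPM with a median of 54.2 in the treatment line and from 16.9 to 330.5 CPM with a median of 65.8 in the control line. The ranges overlapped almost fully. The fitted log2 difference, treatment minus control, was 0.47 ± 0.62 (SE, n = 10 per line, 95% interval -0.81 to 1.76, edgeR quasi-likelihood test, adjusted p = 1.00). YBX1 ran from 6.48 to 56.7 CPM with a median of 26.0 in the treatment line and from 9.47 to 100.7 CPM with a median of 23.9 in the control line. Its fitted log2 difference was -0.34 ± 0.46 (95% interval -1.29 to 0.60, edgeR adjusted p = 1.00). For YBX3 the treatment line ran from 16.6 to 470.1 CPM with a median of 106.4, and the control line from 14.7 to 397.2 CPM with a median of 81.8. Its difference was 0.039 ± 0.62 (95% interval -1.24 to 1.32, edgeR adjusted p = 1.00).

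None of the 3 genes passed the threshold of an adjusted p of 0.05, and 0% of the 13576 genes did by edgeR (104 genes at an unadjusted p under 0.05) or by DESeq2 (173 genes). Both counts are below the 1 in 20 genes that chance alone gives at that cut, and were not read as a difference between lines. The intervals held a 2-fold difference (1 log2 unit) in either direction for YBX3, a 2-fold higher level for YBX2 and a 2-fold lower level for YBX1 in the treatment line. With the spermatid index as a covariate the YBX2 difference became 0.058 ± 0.30 (95% interval -0.55 to 0.67), that of YBX1 -0.063 ± 0.38 and that of YBX3 0.36 ± 0.49, and again 0% of genes passed (edgeR adjusted p = 1.00 for each of the 3, 327 genes at an unadjusted p under 0.05). Single rams moved the YBX2 difference, to -0.076 without SpermRNA382T and to 1.00 without SpermRNA485C, and without both it was 0.46 on the log2 scale, while that of YBX3 was then 0.052 (edgeR adjusted p = 1.00 for each). 

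Rams of the same sire were no closer to each other than rams of different sires by the medians of their differences. The median absolute difference in log2 CPM between the 2 rams of a sire was 1.74 for YBX2, 1.46 for YBX1 and 1.54 for YBX3 over 10 sires, and between rams of different sires it was 1.31, 1.04 and 1.54 over 180 pairs. The widest gap for YBX2, 4.25 log2 units, was within the sire numbered 6 of the control line, whose grandsons SpermRNA350C and SpermRNA485C had 16.9 and 330.5 CPM. These values describe the rams and were not tested.

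The germ-cell form was next set against library composition. YBX2 rose with the spermatid index, by 1.07 ± 0.11 log2 units per unit of index (SE, n = 20, 95% interval 0.84 to 1.31, edgeR adjusted p = 2.24e-08), which is 2.11-fold. Over the 20 rams, Pearson's r between YBX2 and the index was 0.94 and Spearman's rho was 0.92 (permutation p = 2e-05 each, the smallest that 100000 resamples can give, adjusted over 9 gene and index pairs 9e-05 and 0.00018). Without the 2 rams farthest from the median index (SpermRNA485C and SpermRNA359T) r was 0.92, and without rams SpermRNA382T and SpermRNA485C it was also 0.92. Within the treatment line r was 0.95 and within the control line 0.94 (permutation p = 0.0002 each, n = 10). Over the means of the 10 sires r was 0.88 (permutation p = 0.0023). Under this TMM scaling, 27.5% of all genes rose with the index and 34.9% fell. With total counts in place of TMM, 59.1% rose and 8.87% fell, and YBX2 still rose by 1.03 log2 units per unit (edgeR adjusted p = 6.55e-12).

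YBX1 and YBX3 went the other way under TMM. YBX3 fell by 0.83 ± 0.22 log2 units per unit of spermatid index (n = 20, edgeR adjusted p = 0.0028, r = -0.63, permutation p = 0.0034, rho = -0.54, permutation p = 0.015), and YBX1 fell by 0.51 ± 0.15 (edgeR adjusted p = 0.0048, r = -0.54, permutation p = 0.012, rho = -0.56, permutation p = 0.011). Without the 2 rams farthest from the median index, r was -0.54 for YBX3 and -0.52 for YBX1. Within the treatment line r was -0.62 for YBX3 (n = 10, permutation p = 0.057) and -0.36 for YBX1 (permutation p = 0.31). Within the control line it was -0.67 for YBX3 (permutation p = 0.035) and -0.69 for YBX1 (permutation p = 0.015). With total counts neither call held, since the YBX1 slope was -0.0088 (edgeR adjusted p = 0.92) and the YBX3 slope -0.23 (edgeR adjusted p = 0.11). The median slope of all 13576 genes was itself -0.057 under TMM and 0.34 under total counts, and taken relative to that median the slopes under total counts were -0.35 for YBX1, -0.57 for YBX3 and 0.69 for YBX2. Neither call held either with counts summed over the 2 rams of a sire, where the slopes were -0.54 for YBX1 (edgeR adjusted p = 0.22) and -0.33 for YBX3 (edgeR adjusted p = 0.64), while that of YBX2 was 1.05 (edgeR adjusted p = 0.024). Without rams SpermRNA382T and SpermRNA485C r was -0.47 for YBX1 (permutation p = 0.048, adjusted 0.072) and -0.44 for YBX3 (permutation p = 0.067, adjusted 0.087).

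**Figure D2:**
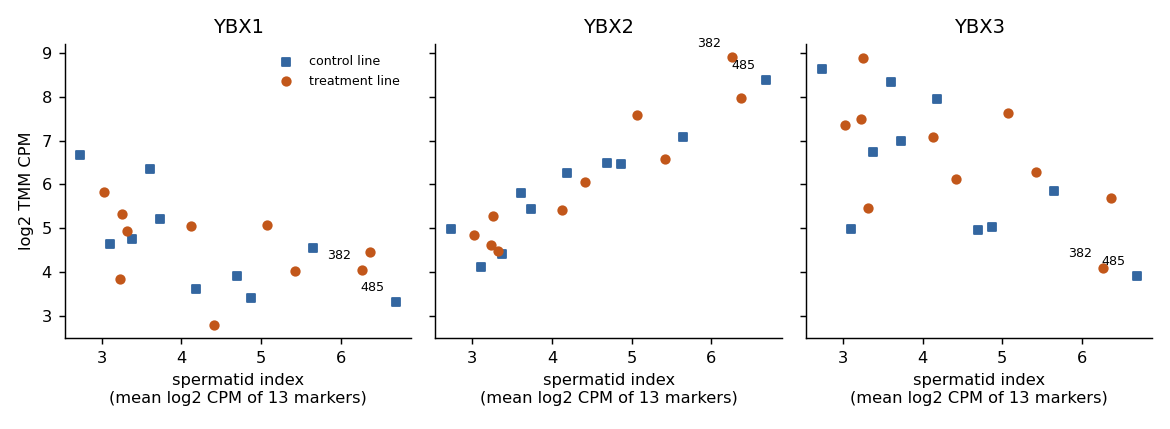
log2 TMM CPM of each Y-box gene (vertical axis) against the spermatid index, the mean log2 CPM of 13 spermatid markers (horizontal axis), with 1 point per ram (squares, control line; circles, treatment line). Rams SpermRNA382T and SpermRNA485C are marked. YBX2 climbed along the index in both lines (r = 0.94), while YBX1 and YBX3 were spread more loosely and lower at its upper end.

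YBX3 and YBX1 moved with the squamous epithelium markers, and so did markers of glandular epithelium, of which 8 of 9 tested rose with the squamous index. YBX3 rose by 0.82 ± 0.15 log2 units per unit of squamous index (n = 20, edgeR adjusted p = 5.77e-05) and YBX1 by 0.47 ± 0.10 (edgeR adjusted p = 0.00029), whereas YBX2 fell by 0.64 ± 0.12 (edgeR adjusted p = 6.81e-05). Of all genes, 31.2% rose and 30.8% fell with this index. Over the 18 rams other than SpermRNA382T and SpermRNA485C, r was 0.76 for YBX1 (permutation p = 0.00032, rho = 0.78), 0.71 for YBX3 (permutation p = 0.0014, rho = 0.69) and -0.51 for YBX2 (permutation p = 0.031, adjusted 0.055, rho = -0.56), and over all 20 rams it was 0.70, 0.81 and -0.74. Within the treatment line r was 0.50 for YBX1 (n = 10, permutation p = 0.17), 0.74 for YBX3 (permutation p = 0.019) and -0.77 for YBX2 (permutation p = 0.0098). Within the control line it was 0.84 for YBX1 (permutation p = 0.00012), 0.87 for YBX3 (permutation p = 0.00082) and -0.74 for YBX2 (permutation p = 0.020). The glandular keratin KRT19 had r = 0.83 with YBX3 and 0.54 with YBX1 over the 20 rams, so the epithelia were not told apart here. Under total counts the YBX3 slope was 0.64 (edgeR adjusted p = 0.040) and the YBX2 slope -1.09 (edgeR adjusted p = 0.0045), but that of YBX1 was 0.11 (edgeR adjusted p = 0.54). With counts summed over the 2 rams of a sire the calls of YBX3 (slope 0.94, edgeR adjusted p = 0.064) and YBX2 (slope -0.60, edgeR adjusted p = 0.066) were lost, and that of YBX1 was kept (slope 0.65, edgeR adjusted p = 0.022).

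The leukocyte markers moved with YBX2 in the opposite direction. YBX2 fell by 0.62 ± 0.12 log2 units per unit of leukocyte index (edgeR adjusted p = 0.00028), when 11.6% of genes rose and 16.5% fell. Over the 18 rams without SpermRNA382T and SpermRNA485C, r was -0.60 (permutation p = 0.0080, rho = -0.57), but with total counts the YBX2 slope was -0.57 with an edgeR adjusted p of 0.096, and with counts summed over sires it was 0.44 (edgeR adjusted p = 0.41). The slopes of YBX1 and YBX3 on the leukocyte index were 0.060 ± 0.16 and 0.25 ± 0.25 (edgeR adjusted p = 0.81 and 0.49). With the index taken from summed CPM both were called, at 0.31 (edgeR adjusted p = 0.00093) and 0.54 (edgeR adjusted p = 0.00012). The indices and the genes were read from the same libraries and share their scaling, so these slopes show which transcripts moved together, and the part of any cell type in them was not tested.

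The total count moved with YBX1 as well. Over the 20 rams, log2 CPM of YBX1 rose with the log2 total count (r = 0.87, rho = 0.86, permutation p = 2e-05 each, adjusted over 9 relations 0.00018, r = 0.85 without the 2 rams farthest from the median total count), and that of YBX3 did so less closely (r = 0.63, permutation p = 0.0033, rho = 0.65, permutation p = 0.0024, r = 0.55 without the 2 farthest). Between YBX2 and the total count r was -0.31 (permutation p = 0.18, rho = -0.32). The TMM factor was lowest, 0.361, in ram SpermRNA468C, which had the highest total count. It was highest, 2.54, in ram SpermRNA413C, which had the lowest total count. At an equal share of the total count, CPM under TMM was therefore higher in SpermRNA468C than in SpermRNA413C. When each level was taken per total count, r with the log2 total count was 0.37 for YBX1 (permutation p = 0.11), 0.25 for YBX3 (permutation p = 0.29) and -0.58 for YBX2 (permutation p = 0.0089). The squamous index also rose with the total count (r = 0.64, permutation p = 0.0024), and the spermatid index was lower in libraries with a higher total count (r = -0.45, permutation p = 0.0495, adjusted 0.089, rho = -0.52, permutation p = 0.020, adjusted 0.035). The part of the total count and of its scaling in the slopes of the 3 genes was not tested.

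The ratio of 2 genes within a library does not depend on how that library is scaled. The log2 ratio of YBX2 to YBX1 (0.5 CPM added to each) ran from -1.69 in ram SpermRNA468C to 5.05 in ram SpermRNA485C, and that of YBX2 to YBX3 ran from -3.66 in ram SpermRNA468C to 4.80 in ram SpermRNA382T. The ratio also carries the unequal lengths of the transcripts, so only its change from library to library was read and not its sign. The rams fell on both sides of a gap of 1.75 in the YBX2 to YBX1 ratio, with 10 rams between -1.69 and 0.76 and 10 between 2.52 and 5.05, and each side held 5 rams of each line. The YBX3 to YBX1 ratio, added after the data were seen, lay between 0.035 in ram SpermRNA382T and 4.34 in ram SpermRNA449C.

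By line, the log2 ratio of YBX2 to YBX1 was 1.63 ± 1.95 (SD, n = 10) in the treatment line and 1.30 ± 2.15 in the control line, a difference of 0.33 ± 0.92 (SE, two-sided permutation test, p = 0.72, adjusted over 3 ratios 0.97). It ran from -0.98 to 4.83 with a median of 1.64 in the treatment line and from -1.69 to 5.05 with a median of 1.37 in the control line. The ratio of YBX2 to YBX3 was -0.44 ± 2.53 and -0.40 ± 2.48, a difference of -0.034 ± 1.12 (permutation p = 0.97). For YBX3 to YBX1 the lines were at 2.07 ± 1.25 and 1.70 ± 1.10, a difference of 0.37 ± 0.53 (permutation p = 0.49). In none of the 3 ratios did the difference between lines exceed the spread among rams.

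Across composition the ratios moved. To keep both sides free of the scaling, each ratio was set against the spermatid index minus the squamous index, a comparison also added after the data were seen. The YBX2 to YBX1 ratio rose by 0.71 log2 units per unit of that difference (r = 0.93, rho = 0.87, n = 20, permutation p = 2e-05 each) and the YBX2 to YBX3 ratio by 0.89 (r = 0.96, rho = 0.90, permutation p = 2e-05 each), with adjusted p = 6e-05 over 6 relations. Without rams SpermRNA382T and SpermRNA485C, which are also the 2 farthest from the median, r was 0.91 and 0.92 (n = 18, permutation p = 2e-05 each), and over sire means it was 0.83 (n = 10, permutation p = 0.0037) and 0.92 (permutation p = 0.0001). Within the 10 rams on the lower side of the gap in YBX2 to YBX1, r was 0.57 (permutation p = 0.11), and within the 10 on the upper side it was 0.91 (permutation p = 0.0072) with rams SpermRNA382T and SpermRNA485C and 0.40 over the 8 others. The sides were set by the ratio itself, which narrows its range, so these within-side values are a description. The YBX3 to YBX1 ratio showed no relation that passed the threshold (r = -0.40, permutation p = 0.074, rho = -0.36, and r = -0.11 without rams SpermRNA382T and SpermRNA485C). Against the spermatid minus the leukocyte index r was 0.78 for both ratios of YBX2 (permutation p = 8e-05 for YBX1 and 6e-05 for YBX3 as partner, rho = 0.69 and 0.67) and -0.29 for YBX3 to YBX1 (permutation p = 0.21), and without rams SpermRNA382T and SpermRNA485C it was 0.64, 0.59 and 0.025.

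**Figure D3:**
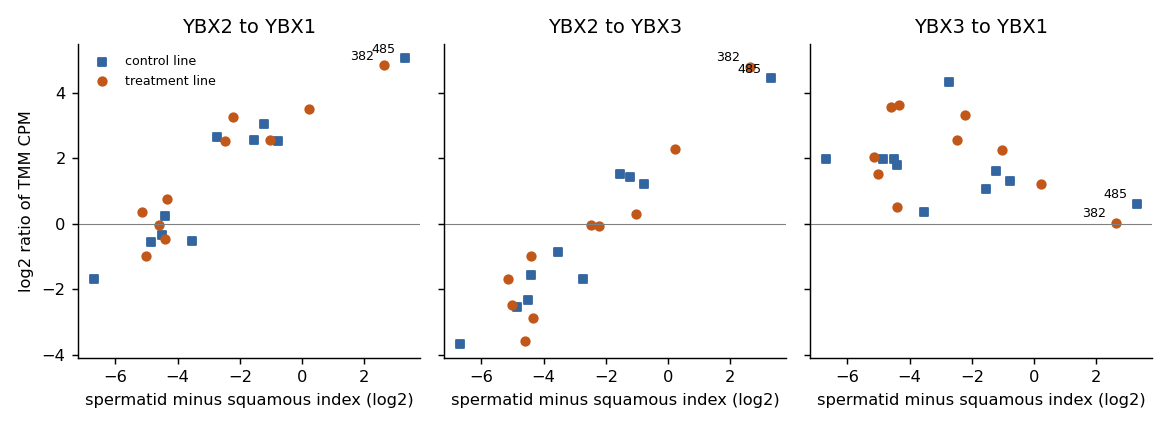
log2 ratio of TMM CPM for each pair of Y-box genes (vertical axis) against the spermatid index minus the squamous index in log2 units (horizontal axis), with 1 point per ram (squares, control line; circles, treatment line). Both ratios of YBX2 climbed from left to right (r = 0.93 and 0.96), with rams of the lines mixed, while YBX3 to YBX1 had no such climb (r = -0.40).

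The genes most like each member over the 20 libraries were different for the 3. For YBX2 they were REEP6 (r = 0.98), a protein that shapes the endoplasmic reticulum, GSG1 (0.97), GPR137 (0.97), B3GALT4 (0.97) and GRK4 (0.96). GSG1, a germ-cell membrane protein, is itself among the 13 spermatid markers of the index. The transcripts most opposed to YBX2 were TAGLN2 (r = -0.86), an actin-binding protein, and EPB41 (-0.86), a protein of the membrane skeleton. For YBX1 the nearest were RAB1A (0.94), a GTPase of transport from the endoplasmic reticulum, ATP5PO (0.94), a subunit of ATP synthase, CANX (0.94), a chaperone of the endoplasmic reticulum, POMP (0.94), which assists proteasome assembly, and ANXA7 (0.94), with FLT4 (-0.90) and DPF1 (-0.89) most opposed. For YBX3 they were TCF7L1 (0.93), a transcription factor of Wnt signalling, AOPEP (0.93), KLHL36 (0.93), LOC101115315 (0.93) and LOC101104287 (0.93), with ADAMTS18 (-0.89) and MS4A14 (-0.89) most opposed. These coefficients are descriptions over libraries in which all genes share differences in total count and composition. Under total counts REEP6 was still the gene most like YBX2 (r = 0.99) and TCF7L1 the gene most like YBX3 (0.87), whereas RAB1A dropped to rank 59 for YBX1 (0.71). Of the opposed genes, TAGLN2 was then at -0.79 with YBX2, but EPB41 was at -0.094, FLT4 and DPF1 were at -0.30 and -0.23 with YBX1, and ADAMTS18 and MS4A14 were at -0.54 and -0.52 with YBX3.

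Between the members r was -0.40 for YBX1 and YBX2, 0.61 for YBX1 and YBX3 and -0.47 for YBX2 and YBX3 under TMM, and -0.013, 0.054 and -0.30 per total count. The positive relation of YBX1 with YBX3 was thus present under TMM alone of these scalings.

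Transcripts known to be stored in spermatids rose with the spermatid index, as YBX2 did. They are spermatid transcripts themselves, so this rise follows from the choice of list and is no test of storage by YBX2. Of 13 listed genes whose transcripts are stored in spermatids, 10 were tested, and 10 of 10 rose with the spermatid index, against 27.5% of all genes, with a median slope of 1.33 log2 units per unit against -0.057. They included PRM1, a protamine that packs sperm DNA, from 34.8 to 1531 CPM (slope 1.25 ± 0.16), SMCP, a protein of the mitochondrial capsule, from 23.4 to 2295 CPM (1.45 ± 0.13), OAZ3, a germ-cell antizyme, from 9.96 to 496.7 CPM (1.33 ± 0.12), and ODF1, an outer dense fibre protein, from 2.12 to 475.6 CPM (1.49 ± 0.13). Under total counts 10 of 10 rose as well, against 59.1% of all genes, with a median of 1.22 against 0.34. None of the 10 passed the test between the lines (edgeR adjusted p = 1.00). 

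Genes for other proteins of germ-cell mRNPs mostly rose with the index as well, and this list too was drawn from germ-cell genes. Of 16 listed genes 14 were tested, and 10 rose and 1 fell with the spermatid index, against 27.5% and 34.9% of all genes, with a median slope of 0.55 against -0.057. BOLL, an RNA-binding protein of meiosis, rose by 1.24 ± 0.14 (edgeR adjusted p = 5.12e-08) and RNF17, a Tudor protein of germ granules, by 1.19 ± 0.10 (edgeR adjusted p = 1.48e-09). TDRD7, another Tudor protein, had a slope of 0.32 ± 0.16 (edgeR adjusted p = 0.081), and PABPC1L, a poly(A)-binding protein of oocytes, fell by 0.67 ± 0.25 (edgeR adjusted p = 0.025). Under total counts 13 of 14 rose and 0 fell, against 59.1% and 8.87% of all genes.

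General mRNP and decay factors moved in both directions, in shares near those of all genes. All 32 listed were tested, 7 rose and 13 fell, against 27.5% and 34.9% of all genes, with a median slope of -0.13 against -0.057. The 4 with the highest mean CPM, named as examples, fell. These were PABPC1, the main poly(A)-binding protein, by 1.12 ± 0.29 (edgeR adjusted p = 0.0023), STAU1, a double-stranded RNA-binding transport protein, by 0.91 ± 0.29 (adjusted p = 0.0085), the helicase DDX6, a repressor of translation in P bodies, by 1.03 ± 0.24 (adjusted p = 0.00087), and PABPC4 by 1.19 ± 0.35 (adjusted p = 0.0058). With total counts the split turned to 19 up and 5 down, against 59.1% and 8.87% of all genes, with a median of 0.28 against 0.34, but the slopes of these 4 stayed below 0 (PABPC1 -0.51, STAU1 -0.42, DDX6 -0.41 and PABPC4 -0.45) with edgeR adjusted p of 0.033 or less. Of the other cold shock domain genes, CARHSP1, an RNA-binding protein, rose by 0.49 ± 0.10 (edgeR adjusted p = 0.00028). Under total counts its slope was 0.66 (edgeR adjusted p = 2.71e-09).

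**Figure D4:**
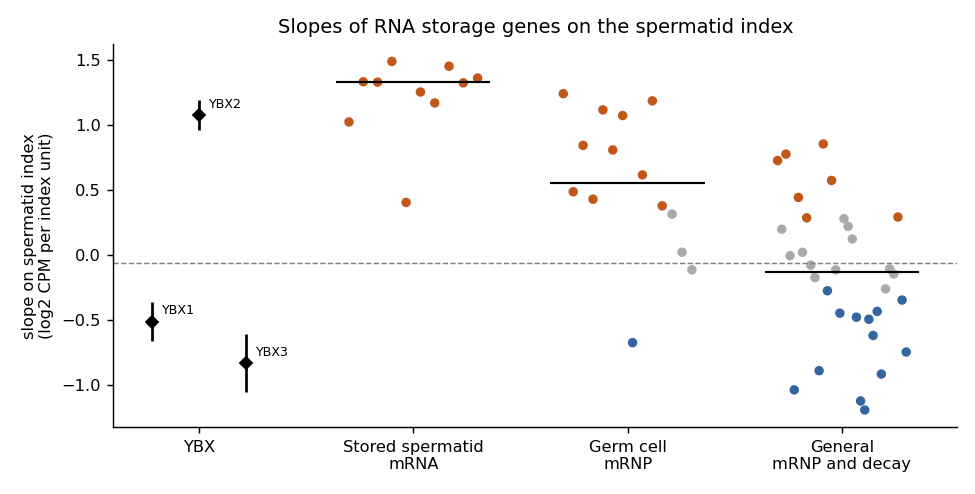
Slope of log2 CPM on the spermatid index (vertical axis, log2 units per unit of index, TMM) for the 3 Y-box genes (diamonds with SE) and for the tested genes of 3 lists (circles; orange, rose; blue, fell; grey, adjusted p of 0.05 or more). Solid lines are list medians and the dashed line is the median of all 13576 genes at -0.057. The slope of YBX2 lay within the range of the stored spermatid messages. Those of YBX1 and YBX3 lay within the range of the 32 general factors, of which 7 rose and 13 fell. Under total counts the slopes of YBX1 and YBX3 were not called.

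Markers of the remaining cell types were read on the same scale. Of 13 tested spermatid markers 12 rose with their own index, which holds them, and 17 of 18 leukocyte and 7 of 11 squamous markers fell with it. Of 9 tested glandular epithelium markers 6 fell and 0 rose, with KRT19 up to 7483 CPM. Under total counts 3 of 18 leukocyte markers fell and 0 rose, 5 of 11 squamous markers fell and 1 rose, and 1 of 9 glandular markers fell and 2 rose. Of all genes, 59.1% rose and 8.87% fell under that scaling. Of 4 early germ cell markers 1 rose and 2 fell, of 3 Sertoli cell markers 0 rose and 1 fell, and of 4 stroma markers 1 rose and 1 fell, when 27.5% of all genes rose and 34.9% fell. The last 3 lists have too few tested genes to be read against that background. Among the lists and markers, 0 genes were called between the lines by edgeR, and 1, of the squamous list, had an unadjusted p under 0.05. The libraries labelled sperm held leukocyte transcripts such as S100A9 at 32.7 to 37899 CPM and squamous transcripts such as KRT78 at 29.6 to 36805 CPM. The median summed level was 13202 CPM in the treatment and 11082 CPM in the control line for the leukocyte markers, 16135 and 14252 CPM for the squamous markers, and 480 and 365 CPM for the spermatid markers.

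Reads near the Y-box genes could belong to neighbours, since it is not stated whether counting used the strand. In the RefSeq annotation of ARS-UI_Ramb, YBX1 overlaps CLDN19, a claudin of tight junctions, and YBX2 overlaps SLC2A4, an insulin-responsive glucose transporter. CLDN19 had between 1 and 33 reads per library, and SLC2A4 between 8 and 190, with r = -0.49 against YBX2 over the 20 libraries. STYK1, the gene next to YBX3, had between 13 and 313 reads and r = 0.84 with YBX3, but also r = 0.83 with YBX1, which is not its neighbour. YBX1 has processed copies in mammalian genomes, so that its count may be incomplete or shared.

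The study links 1 CG cytosine outside the YBX3 gene, on the minus strand at position 219196131 of chromosome 3 (Oar_rambouillet_v1.0), to that gene as downstream of it and to its neighbour STYK1, a kinase gene, as upstream of it, and chose it on these samples for its difference between lines. Its level was therefore no independent evidence. It lies 8036 bases from the end of YBX3. In F0 the methylated share of reads was 39.1%, 60.0%, 0%, 0% and 66.7% in the treated sires and 97.6%, 92.9%, 65.4%, 100% and 47.1% in the control sires (16 to 42 reads each). In F1 pools it was 48.0%, 52.2%, 29.7%, 0% and 68.6% against 75.9%, 84.0%, 74.2%, 55.6% and 64.0%. In the F2 rams it ran from 0% to 84.6% with a median of 42.1% in the treatment line and from 23.5% to 100% with a median of 58.8% in the control line. The F2 rams at 0% were SpermRNA382T, a grandson of sire 9, and SpermRNA426T, a grandson of sire 11. Both of these F0 sires were also at 0%, and the F1 pools of sires 9 and 11 were at 29.7% and 0%. The other F2 grandsons of sires 9 and 11 were at 53.3% and 35.5%. The part of family in these levels was not tested. The groups overlapped in each generation. Exact 95% binomial intervals of the single samples were between 10.0 and 55.6 points wide over the 40 samples. In the 5 samples with 0 methylated reads these intervals reached up to 10.0% to 14.8%, and the limit taken as 3 counts over the reads of the sample was 8.57% to 13.04%.

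On summed reads the difference between lines (treatment minus control) was -50.2 points in the F0 sires, -31.6 in the F1 pools and -31.7 in the F2 rams (likelihood-ratio test, adjusted p = 9.91e-15, 8.04e-06 and 1.1e-11), which met the thresholds of 20 points and 0.01 that 1.82%, 1.00% and 2.19% of listed CG cytosines met in these generations. The test on summed reads takes the read as its unit and leaves out the spread among rams or pools. With the ram or pool as the unit, the mean differences were -47.4, -31.0 and -28.4 points (permutation test, exact in F0 and F1, p = 0.040, 0.032 and 0.030, adjusted over 6 tests 0.079 each), and limma on the levels across all cytosines gave adjusted p of 0.99, 0.97 and 1.00. The exact tests of 5 against 5 can give no p under 0.0079 before adjustment, so 0.01 was almost out of their reach in F0 and F1. The F0 sires of the lines were twins, but the labels do not say which sire is the twin of which, so these tests were unpaired. The only other listed CG cytosine within 10 kb of YBX3, at position 219156326 on the plus strand, gave differences of 6.4, 13.9 and 5.5 points on summed reads, in the same order, and did not meet the thresholds. Without the F1 control pool of sire 24 its F1 difference was 2.9 points. The study correlated the F2 level at 219196131 with expression and lists YBX3 and STYK1 among its correlated genes, by a looser p threshold than the one used here. The F2 levels fell into 2 rams at 0%, 13 between 23.5% and 61.3%, and 5 between 84.6% and 100%, so no correlation was taken here over all of them. The value for the 13 rams covers fewer rams and a narrower range than the study's and is no check of it. Within the 13 rams, r between the level and log2 CPM of YBX3 was 0.24 (permutation p = 0.43, rho = 0.34, permutation p = 0.26), and without the 2 rams farthest from the median it was -0.031. YBX3 ran from 16.6 to 69.6 CPM in the 2 rams, from 14.7 to 322.5 CPM in the 13 and from 32.3 to 470.1 CPM in the 5, with medians of 43.1, 77.6 and 127.1 CPM. The medians were in the order of the methylation levels, the ranges overlapped, and this order was not tested.

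**Figure D5:**
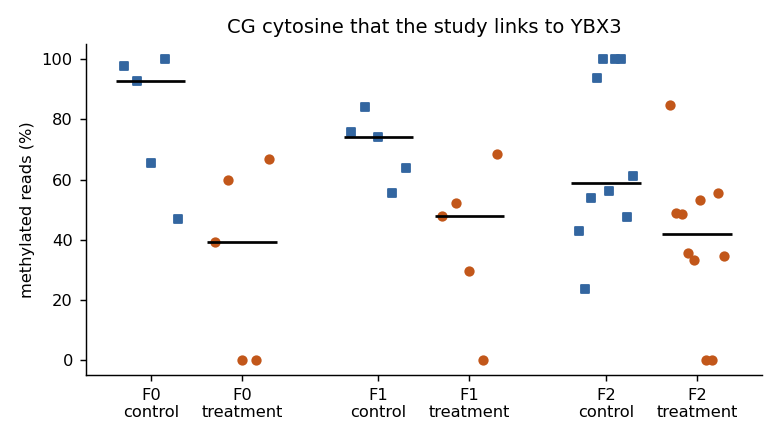
Methylated reads in percent (vertical axis) at the CG cytosine that the study links to YBX3, for each F0 ram, F1 pool and F2 ram by line (squares, control; circles, treatment; horizontal lines, medians). The treatment medians were lower in each generation, 39.1%, 48.0% and 42.1% against 92.9%, 74.2% and 58.8%, and the points of the lines overlapped.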

How the data were processed

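Per the labels and the study's methods, the authors trimmed the RNA reads with Trimmomatic and deposited raw read counts per gene from STAR on Oar_rambouillet_v1.0, unfiltered, while bisulfite reads were trimmed with Trim Galore and aligned with Bismark and Bowtie2, and the deposited read counts per cytosine keep sites with at least 10 reads in every sample. Which STAR strand column was taken is not given in the sources used here. Tables of CHG and CHH cytosines and 40 columns of unmethylated reads were not used. 1 row of the count table, named transcript_id, names no gene (0.00085% to 0.0253% of the reads of a library) and was left out of library sizes and tests. Genes reaching 15 counts in over 10 libraries were normalised by TMM and tested with edgeR 4.0.16 (quasi-likelihood, Benjamini-Hochberg over all 13576 genes, threshold 0.05), with limma 3.58.1 and DESeq2 1.42.0 as alternatives. Permutation tests over rams used scipy 1.17.1 (100000 resamples, exact under 10 per group, two-sided). log2 CPM used a prior count of 2. Cytosines were tested by a likelihood-ratio test on reads summed over each group. That test takes reads as its unit, and in the other tests the replicates are rams or pools, or sires where these are named. Intervals on counts cover counting error only. The fits were tested on simulated data. The Y-box genes, marker lists and gene lists were chosen with earlier results of these data known. Genes were named by a fixed rule, namely the 5 most alike and 2 most opposed per Y-box gene and the most abundant members of each list. 1 listed gene is not reported here. The study's methods give another number of genes for the same wording of this filter on low counts, which was not resolved.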

Additional observations from a re-analysis of the deposited data

Results flagged for a closer look

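Of 24 groups tested for a sample far from the others, 2 held such a sample, while chance alone gives about 1 in 20 groups. In the control line the log2 ratio of YBX3 to YBX1 was 4.34 in ram SpermRNA449C, and the next ram was at 1.99. YBX1 had 18 reads and YBX3 378 reads in that library. At the CG cytosine at position 219156326 near YBX3, the F0 control sire 24 had a methylated share of 60%, and the next control sire was at 93.9%. Without sire 24 the F0 difference between lines at that cytosine went from 6.4 to -0.92 points.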

How the results depend on the processing

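No Y-box gene and 0 genes in all were called between the lines under each alternative tried, including the one without rams SpermRNA382T and SpermRNA485C, which was chosen after seeing the data (52 to 716 genes at an unadjusted p under 0.05 in these fits, and 76 to 168 with 1 ram left out). The log2 diet difference of YBX3 was -0.023 with RLE size factors and -0.023 with DESeq2. With 1 ram left out, that of YBX1 ran from -0.54 to 0.011, of YBX2 from -0.076 (without SpermRNA382T) to 1.00 (without SpermRNA485C) and of YBX3 from -0.40 to 0.38, the log2 ratio YBX2 to YBX1 from -0.023 to 0.75 and YBX2 to YBX3 from -0.62 to 0.50, with no call in any.

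Slopes on the spermatid index under total counts were -0.0088 for YBX1 and -0.23 for YBX3, on the leukocyte index -0.092 for YBX1 and -0.57 for YBX2, and on the squamous index 0.11 for YBX1, none of them called. With counts summed over sires, also added later, the spermatid slopes were -0.54 for YBX1 and -0.33 for YBX3, the squamous slopes -0.60 for YBX2 and 0.94 for YBX3, and the leukocyte slopes -0.80, 0.44 and -1.19 for YBX1, YBX2 and YBX3, none called. The leukocyte slopes of YBX1 and YBX3 were called at 0.31 and 0.54 with the index from summed CPM, and were -0.13 and -0.11 without rams SpermRNA382T and SpermRNA485C. That of YBX1 was -0.0025 without the 2 libraries farthest from the median. The cause was not tested.

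Correlations over sire means were -0.60 (YBX1) and -0.56 (YBX3) with the spermatid index, 0.59 (YBX1) with the squamous index, and -0.36 (YBX1) and -0.26 (YBX2) with the leukocyte index, none past 0.05. Over the 18 single rams without SpermRNA382T and SpermRNA485C, r was -0.47 (YBX1) and -0.44 (YBX3) with the spermatid, -0.51 (YBX2) with the squamous, and -0.12 (YBX1) and -0.18 (YBX3) with the leukocyte index. The YBX2 slope on the spermatid index kept its direction and call under each alternative.

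The number of genes that rose and fell with the spermatid index was 3739 and 4737 under TMM, 8019 and 1204 under total counts and 1290 and 191 summed over sires, and 2913 fell without rams SpermRNA382T and SpermRNA485C. For the squamous index 4241 and 4179 became 1334 and 2175 under total counts and 1862 and 1373 over sires. For the leukocyte index 1574 and 2244 became 976 and 70, and 401 and 78, in the same order, 4959 and 4290 with the summed index, 732 and 830 without the 2 farthest libraries, and 165 fell without SpermRNA382T and SpermRNA485C.

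At the cytosine at position 219196131 limma and the permutation test over rams or pools gave -47.4, -31.0 and -28.4 points for the 3 generations. Each was past 20 points and missed the threshold on the adjusted p alone. The exact test could hardly meet it in F0 and F1 (lowest possible p = 0.0079 before adjustment). Its p there, 0.040 and 0.032, were also above that bound. In F2 the lowest possible permutation p was 1e-05, and the threshold was missed as well (p = 0.030, adjusted 0.079). By limma, which has no such bound, it was missed in all 3 generations. At 219156326, leave-one-out values ran from -0.92 to 9.2 in F0 and from 2.9 (without the control pool of sire 24) to 18.3 in F1. Both cytosines had samples under 20 reads in F0 and F2, so the minimum of 20 reads gave values in F1 alone. No paired analysis was possible because the labels describe twin pairs without saying which sires are twins, and the lines share no replicate numbers.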
